A study of Mus musculus with 21 samples.

Results

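Cerebral cortex was compared between mice in which a TDP-43 transgene was switched on by its driver and mice without the driver. Members were chosen by title: the 9 arrays titled tTA/TDP-DeltaNLS or tTA/TDP-WT formed the driven arm, the 12 titled Monogenic DeltaNLS or Non-transgenic formed the undriven arm, and together they make up all 21 arrays of the series, with 1 array for each mouse. The 5 tTA/TDP-DeltaNLS mice, of line NLS4, carried tTA and a transgene for human TDP-43 with a defective nuclear localization signal. The 4 tTA/TDP-WT mice, of line WT12, carried tTA and a transgene for the wild-type human protein. The 4 Monogenic DeltaNLS mice, of line NLS4, carried the TDP-43 transgene without tTA, and the 8 Non-transgenic mice, 6 of line NLS4 and 2 of line WT12, carried neither. Every mouse had the mixed C57BL/6J x C3HeJ background, and tissue was taken 2 weeks after a diet with doxycycline was withdrawn. The driven arm held 5 males and 4 females by label, and the undriven arm 7 males and 5 females. The sources used here do not give the ages of the mice.

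TDP-43 is an RNA-binding protein that normally sits in the nucleus, regulates splicing and the level of its own mRNA, and leaves the nucleus of affected neurons in amyotrophic lateral sclerosis and frontotemporal dementia. tTA is a transactivator that doxycycline keeps inactive. In the published lines of this kind it is expressed from the Camk2a promoter, which is active in excitatory neurons of the forebrain; the labels do not name the promoter. No group carried tTA alone, so an effect of tTA and an effect of TDP-43 cannot be told apart in any comparison made here. Each form is represented by 1 line, so form and line cannot be told apart either. In bulk tissue, fewer cells of a type and less RNA per cell cannot be told apart.

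All values are log2 levels from an Affymetrix expression array, and a difference of 1 is a 2-fold change. Array medians lay between 5.76 and 6.05. The lowest value of 2.04 is common to all arrays, and differences toward it are compressed. The arms differed in RNA quality as read from control probe sets. The Gapdh 3' minus middle difference, which grows with 3' bias, was 0.447 ± 0.0195 (SD, n = 9) in driven and 0.686 ± 0.378 (n = 12) in undriven arrays (two-sided exact permutation p = 0.000129, adjusted p = 0.000259 over 2 measures). The beta-actin 3' minus 5' difference was 1.59 ± 0.31 and 2.78 ± 1.97 (exact permutation p = 0.0259 and adjusted p = 0.0259). Non-transgenic arrays 4 and 6 had the highest beta-actin values, at 4.70 and 8.20. Non-transgenic array 1, labelled male, read as female, and the fits kept its label. The mean level of a list of 17 microglial markers was 9.77 on tTA/TDP-WT array 3 and lay between 7.04 and 8.38 on the other 20 arrays, and that of 17 interferon response genes was 5.15 there and at most 3.97 elsewhere. The excitatory neuron list, which marks the cortex, averaged 9.97 to 10.77 in driven and 9.88 to 10.88 in undriven arrays. The striatal list averaged 7.45 to 10.39 in driven and 8.04 to 10.84 in undriven arrays, and its part in the results was not tested.

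Driven and undriven cortex differed in many genes, and most of these calls rested on the DeltaNLS form. Of 12393 genes, 2149 (17.3%) passed an adjusted p of 0.05 in the pooled comparison, 948 higher (7.65%) and 1201 lower (9.69%) in driven mice. The change had an equal direction in both forms for 2101 genes (17%), of which 915 were higher (7.38%) and 1186 lower (9.57%). At least a 2-fold pooled difference was found for 155 of the called genes (1.25% of all), 56 higher (0.452%) and 99 lower (0.799%). A stricter reading asks that each form pass on its own against the 12 undriven arrays, in the same direction; 129 genes (1.04%) did so, 35 higher (0.282%) and 94 lower (0.758%). With each array centred on its median the count was 88, of which 10 were higher, and 62 of the 129 genes were among them. With the Gapdh bias as a covariate 92 of the 129 passed in each form, and with the beta-actin bias 102. Without Non-transgenic arrays 4 and 6, 126 of the 129 did, and with Non-transgenic controls alone 39. Of the pooled calls, 1693 passed in tTA/TDP-DeltaNLS and not in tTA/TDP-WT, 50 in tTA/TDP-WT and not in tTA/TDP-DeltaNLS, and 277 in neither. On their own, 2898 genes (23.4%) passed in tTA/TDP-DeltaNLS and 225 (1.82%) in tTA/TDP-WT, and both of these comparisons used the same undriven arrays. A missing call in tTA/TDP-WT, with 4 arrays, does not show that a gene kept its level. With the 4 Monogenic DeltaNLS arrays as the only controls, 385 genes passed the pooled comparison, with 99 of the 129 and 21 of the 24 named ones among them. With these controls 34 genes passed in each form, with only 16 of the 129 and 6 of the 24 among them.

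The count of genes changed in each form depended on single mice and on the sex term. It was 179, with 128 of the 129 among them, when sex was read from Xist in place of the labels, 101 without Non-transgenic array 1, and 285 with no sex term. Leaving out tTA/TDP-WT array 3, the array with the high microglial and interferon lists, left 17 genes, and leaving out tTA/TDP-WT arrays 1, 2 and 4 left 31, 43 and 77. Without Monogenic DeltaNLS array 4 there were 81, and without Non-transgenic array 7 there were 82. Without Non-transgenic array 6, the array of highest 3' bias, there were 229. All 129 genes passed the pooled comparison in each of these 21 left-out fits, and so did the 24 genes described first below. Of those 24, 5 still passed in each form without tTA/TDP-WT array 3, 5 without array 1, 11 without array 2 and 16 without array 4, and with an array of another group left out at least 17 did. Among them Nop14 passed in each form in 6 of the 21 fits, Gm29722 in 7, Gadd45b in 9, and Trhr and Myh7 in 11.

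**Figure D1:**
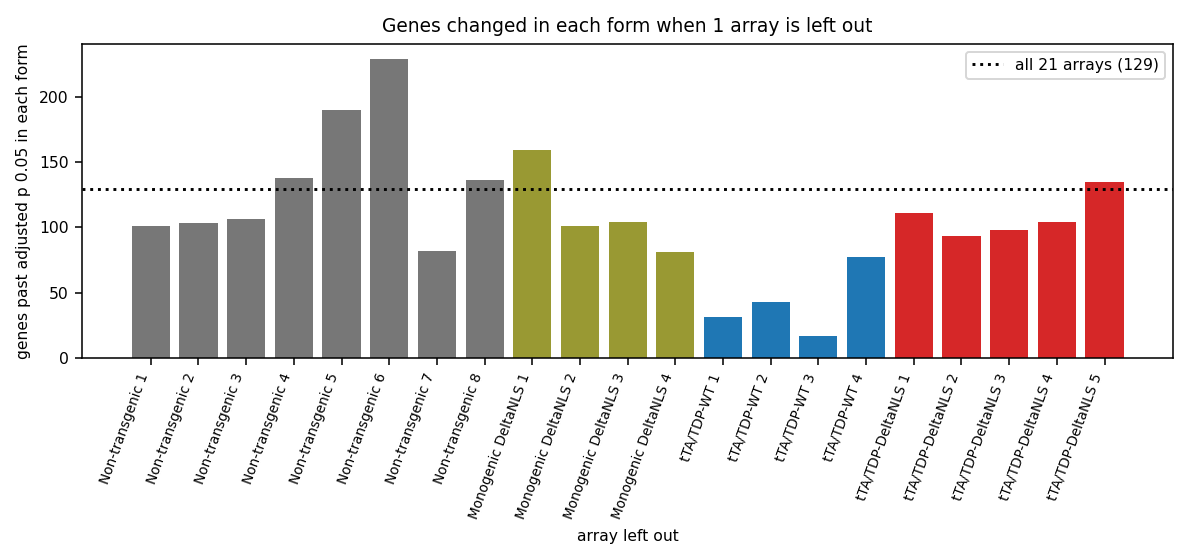
Number of genes past an adjusted p of 0.05 in both driven forms with the same direction (y axis, count) after each of the 21 arrays is left out (x axis); bars are coloured by group and the dotted line marks the 129 genes found with all arrays. The bars for the 4 tTA/TDP-WT arrays are among the lowest, down to 17 genes, and the bar for Non-transgenic array 6 is the highest, at 229.

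Line differed between the forms and their controls as well. Against the 2 Non-transgenic mice of their own line, tTA/TDP-WT mice gave 1 call in limma (989 genes had an unadjusted p under 0.05), and no gene passed in each form when each was set against its own line. With separate groups of controls that share no array (tTA/TDP-DeltaNLS against Monogenic DeltaNLS, 1773 genes or 14.3%; tTA/TDP-WT against Non-transgenic, 276 genes or 2.23%), 105 genes (0.847%) passed in both with the same direction, 33 higher and 72 lower. Of the 129 genes, 86 were among them. Gadd45b and Trhr were not, by the WT form (limma adjusted p = 0.0661 and 0.0597). Psmg3 and Gm29722 were not, by the DeltaNLS form (limma adjusted p = 0.165 and 0.12).

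Among the genes higher in both forms, the growth arrest genes Gadd45b and Gadd45g were prominent. Both encode small stress sensors that neurons also induce with activity. Their promoters from the RefSeq table (GRCm38.p6, 250 bases before to 50 after the start of transcription) are shown because these are the 2 members of 1 family among the 12 largest increases. Capitals mark the E-box, spelled CACGTG, which basic helix-loop-helix factors can read. They also mark the box named for its letters, CCAAT. The third element in capitals is the core of the TATA box, searched as TATAAA. Gadd45b lies on the plus strand at chr10:80929841-80930140 and Gadd45g on the plus strand at chr13:51846425-51846724.
Gadd45b: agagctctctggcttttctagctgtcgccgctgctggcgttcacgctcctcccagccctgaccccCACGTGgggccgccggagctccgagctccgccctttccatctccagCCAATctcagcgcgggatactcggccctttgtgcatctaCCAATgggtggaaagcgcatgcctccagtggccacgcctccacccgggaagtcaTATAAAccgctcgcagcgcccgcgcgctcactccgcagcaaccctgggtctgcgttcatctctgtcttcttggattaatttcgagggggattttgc
Gadd45g: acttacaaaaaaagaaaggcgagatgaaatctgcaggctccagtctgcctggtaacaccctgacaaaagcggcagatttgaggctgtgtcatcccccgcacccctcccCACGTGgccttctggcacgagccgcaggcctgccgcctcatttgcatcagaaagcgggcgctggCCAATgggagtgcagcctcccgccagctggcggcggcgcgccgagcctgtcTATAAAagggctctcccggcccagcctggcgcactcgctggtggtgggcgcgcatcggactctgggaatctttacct

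Each of the 2 promoters held 1 E-box and 1 TATA box, with 2 CCAAT boxes in Gadd45b and 1 in Gadd45g, searched on both strands. These motifs were chosen after the sequences were seen, and a match is not a measured binding site. Over the 32 promoters found for 28 of the 35 genes higher in each form, 6 (18.8%) held the E-box, 14 (43.8%) a CCAAT box and 5 (15.6%) the TATA box. Both Gadd45 promoters are counted in each of these shares, which therefore describe the set and do not test it. The 106 promoters found for 74 of the 94 lower genes held them in 14 (13.2%), 31 (29.2%) and 9 (8.49%) cases. Among all 32851 promoters of the table the shares were 7.15%, 37.4% and 13.6%. These belong to 27025 genes and are not limited to the 12393 genes tested here. The cAMP response element TGACGTCA was in 3.12% of the higher, 1.89% of the lower and 1.79% of all promoters, and in neither Gadd45 promoter. The element TGATGNAA, read by C/EBP and ATF factors, was in 3 of the higher promoters (9.38%), Gadd45g among them, in 1 of the lower (0.943%) and in 3.97% of all.

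Gadd45b stood at 9.39, 8.93, 8.97, 9.11 and 8.45 in the tTA/TDP-DeltaNLS arrays and at 9.04, 8.99, 8.99 and 9.50 in the tTA/TDP-WT arrays. The undriven arrays ran from 6.32 through a median of 7.62 to 8.69. Of the driven arrays, 8 of 9 lay above every undriven one, and tTA/TDP-DeltaNLS array 5 lay below the 2 Non-transgenic mice of line WT12, which stood at 8.69 and 8.53. The pooled difference was 1.42 ± 0.25 (SE, adjusted p = 0.00104), with 1.43 in the DeltaNLS form and 1.40 in the WT form (adjusted p = 0.0441). Against the WT12 controls alone the WT form differed by 0.53 (adjusted p = 1). The other probe sets of Gadd45b rose too, by 1.44 and 2.26 in the pooled comparison.

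Gadd45g stood at 8.29, 8.60, 8.41, 8.53 and 8.87 in tTA/TDP-DeltaNLS and at 9.07, 8.82, 9.29 and 9.14 in tTA/TDP-WT, against 7.31 to 8.57 (median 8.01) in undriven arrays. All 4 WT-form arrays lay above every undriven array, and the DeltaNLS form overlapped them. The pooled rise was 0.79 ± 0.14 (adjusted p = 0.00125), 0.60 in the DeltaNLS form and 1.02 in the WT form. The direct difference of -0.42 between the forms did not pass (adjusted p = 0.265).

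Fbxo2 encodes the subunit of a ubiquitin ligase that binds glycoproteins. It stood at 11.20, 11.42, 11.27, 11.61 and 11.48 in tTA/TDP-DeltaNLS and at 11.42, 11.20, 11.69 and 11.36 in tTA/TDP-WT, above all undriven arrays (10.11 to 10.97, median 10.72). The arms did not overlap, and the pooled rise was 0.74 ± 0.10 (adjusted p = 0.000293), with 0.75 and 0.71 in the forms. Over all genes tested, the arms did not overlap for 168 (1.36%).

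Kars encodes the lysyl-tRNA synthetase, which loads lysine onto its tRNA. It stood at 10.63, 10.59, 10.67, 10.62 and 10.67 in tTA/TDP-DeltaNLS and at 10.25, 10.37, 10.47 and 10.35 in tTA/TDP-WT, against 9.71 to 10.25 (median 9.92) in undriven arrays. The lowest WT-form array met the highest undriven array when rounded, though the arms did not overlap. The rise of 0.72 in the DeltaNLS form was larger than that of 0.40 in the WT form, by 0.32 (adjusted p = 0.0173). Of the 12 increases, Kars alone passed in both forms in each of the 21 left-out fits. Against the WT12 controls it differed by 0.49 in the WT form and did not pass (adjusted p = 0.0966).

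Eif2b1 encodes the alpha subunit of eIF2B, the factor that recharges eIF2 and through which the integrated stress response slows translation. Its driven arrays lay between 7.45 and 8.10 and its undriven arrays between 7.15 and 7.74, and it rose by 0.43 and 0.47 in the forms. Psmg3, a chaperone of proteasome assembly, rose by 0.52 and 0.71, and the undriven arrays reached 9.98, within the driven range of 9.81 to 10.21. Arl2, a small GTPase that takes part in tubulin folding, rose by 0.92 and 0.41, with all 9 driven arrays (9.47 to 10.20) above all undriven arrays (8.81 to 9.39). The Arl2 rise was larger in the DeltaNLS form (direct adjusted p = 0.00402).

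Pdrg1, a prefoldin-like gene named for its regulation by p53 and DNA damage, showed the widest gap between the forms among the 12. It stood at 12.67, 12.59, 12.57, 12.87 and 12.46 in tTA/TDP-DeltaNLS, at 11.05, 11.09, 11.70 and 11.33 in tTA/TDP-WT, and at 10.43 to 11.04 (median 10.68) in undriven arrays. The 3 sets did not overlap. The rises of 1.91 and 0.57 differed by 1.34 ± 0.15 (adjusted p = 1.5e-05), and 3 of its 4 probe sets rose while the fourth lay at the lowest value on all arrays. Susd6, a sushi domain gene that p53 can induce, rose by 0.88 and 0.48, and that gap of 0.40 also passed (adjusted p = 0.0323).

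The remaining increases were Nop14 (1.22 and 0.67), a nucleolar factor for the small ribosomal subunit, Hsd17b10 (0.76 and 0.41), a mitochondrial dehydrogenase that is also part of mitochondrial RNase P, and Prkrip1 (0.52 and 0.40). Their arms did not overlap. The gap between the forms passed for Hsd17b10 (0.35, adjusted p = 0.0384). Its second probe set rose less, by 0.27, and did not pass (adjusted p = 0.167).

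**Figure D2:**
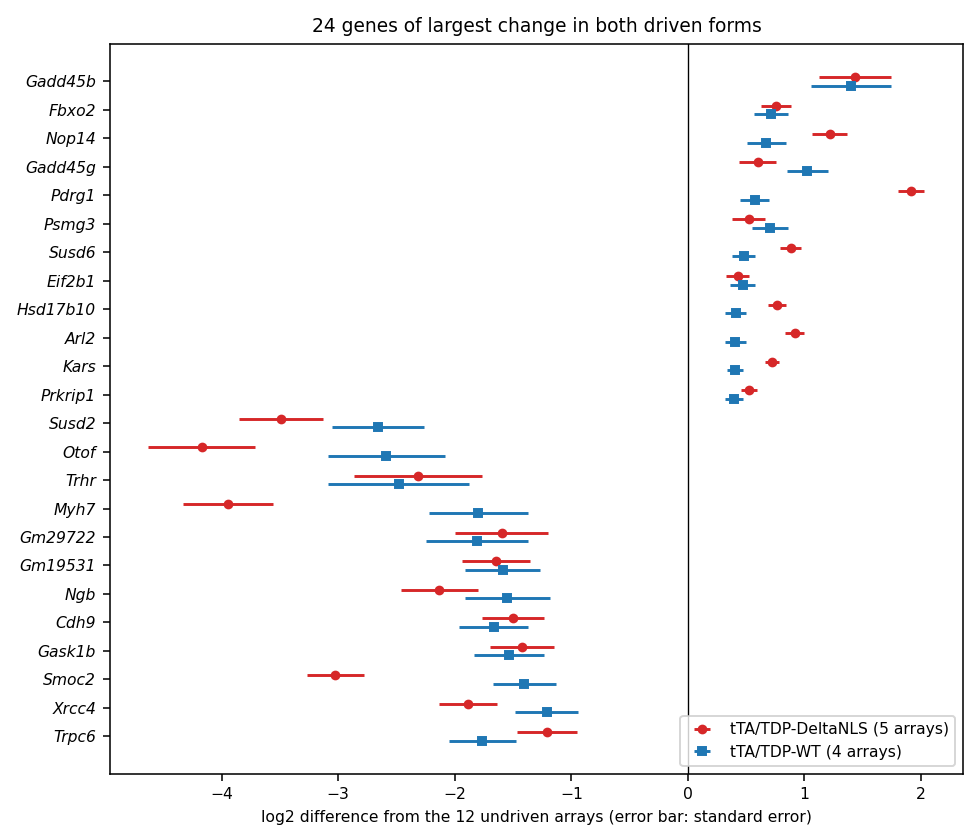
Log2 difference from the 12 undriven arrays (x axis, ± SE of the limma fit) in tTA/TDP-DeltaNLS (circles, 5 arrays) and tTA/TDP-WT (squares, 4 arrays) for the 12 largest increases and 12 largest decreases shared by both forms. Susd2 and Otof show the largest shared decreases and Gadd45b the largest shared increase, and for Pdrg1, Myh7 and Smoc2 the forms stand well apart.

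By the pooled difference, the 12 named decreases were each larger in size than the 12 increases. Susd2, a sushi domain gene for a membrane protein, stood at 2.30, 2.31, 2.09, 2.35 and 2.31 in tTA/TDP-DeltaNLS and at 2.92, 3.10, 2.46 and 3.30 in tTA/TDP-WT. Undriven arrays ran from 4.66 to 7.31 (median 5.70). Every driven array was thus below every undriven array, and the DeltaNLS arrays were close to the lowest value. Susd2 fell by 3.13 ± 0.31 in the pooled comparison (adjusted p = 5.41e-05), with -3.49 in the DeltaNLS form and -2.66 in the WT form (adjusted p = 0.00937). It passed in both forms in all 21 left-out fits. Against the WT12 controls the difference was -2.29 and did not pass (adjusted p = 0.2).

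Otof encodes otoferlin, a calcium sensor for vesicle fusion best known from hair cells of the ear. It stood at 2.04, 2.10, 2.04, 2.06 and 2.62 in tTA/TDP-DeltaNLS, at 2.80, 3.96, 3.25 and 5.12 in tTA/TDP-WT, and at 5.11 to 8.47 (median 6.41) in undriven arrays. Only tTA/TDP-WT array 4 reached the undriven range. Otof fell in both forms (-4.17 and -2.59), and the first is compressed since 2 arrays were at the lowest value.

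Myh7, a myosin heavy chain of heart and slow muscle, stood at 4.31, 4.77, 4.46, 6.08 and 6.05 in tTA/TDP-DeltaNLS and at 6.35, 7.86, 7.47 and 8.86 in tTA/TDP-WT, against 8.22 to 10.63 (median 9.05). It fell in both forms (-3.94 and -1.80), a gap between the forms of -2.15 ± 0.51 (adjusted p = 0.00987). Against its own WT12 controls, at 8.22 and 9.04, the WT form differed by -0.73 (adjusted p = 0.985).

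Cdh9, a cadherin of cell adhesion, and Trpc6, a cation channel opened by diacylglycerol, fell in both forms. Cdh9 stood at 6.27, 6.80, 6.80, 6.67 and 7.38 in tTA/TDP-DeltaNLS and at 7.42, 6.71, 5.82 and 6.75 in tTA/TDP-WT, below all undriven arrays (7.50 to 9.20, median 8.28). Trpc6 stood at 7.30, 7.55, 8.01, 7.17 and 8.01 and at 7.31, 7.13, 6.72 and 7.14, also below all undriven arrays (8.21 to 9.80, median 8.64). Cdh9 fell in both forms (-1.50 and -1.67), and so did Trpc6 (-1.21 and -1.76). Their direct differences were 0.17 ± 0.35 (adjusted p = 1) and 0.56 ± 0.34 (adjusted p = 0.413), and neither passed. Both genes passed in both forms in all 21 left-out fits, and against the WT12 controls they differed by -1.71 and -1.30 (adjusted p = 0.204 and 0.269).

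Ngb encodes neuroglobin, an oxygen-binding protein of neurons. All 5 tTA/TDP-DeltaNLS arrays were at the lowest value, the tTA/TDP-WT arrays stood at 2.11, 2.29, 2.40 and 3.71, and the undriven arrays ran from 3.52 to 5.78 (median 3.92). Ngb thus was no longer measured above the lowest value in the DeltaNLS form, and 3 of 4 WT-form arrays were below all undriven arrays. It fell in both forms (-2.13 and -1.55), the first a compressed value.

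Smoc2, a secreted matrix protein, fell in both forms (-3.02 and -1.41), and Xrcc4, a factor of DNA end joining, fell in both forms (-1.89 and -1.21), both without overlap of the arms. The Smoc2 gap of -1.62 between the forms passed (adjusted p = 0.00278). The second probe set of Xrcc4 fell less, by 0.60 in the pooled comparison, with -0.12 in the WT form (adjusted p = 0.874). Gask1b, a kinase-like protein of the Golgi, fell in both forms (-1.42 and -1.54), and Trhr, the receptor of thyrotropin-releasing hormone, fell in both forms (-2.32 and -2.48). The last 2 of the 12 were predicted genes. Gm29722 fell in both forms (-1.60 and -1.81), and Gm19531 fell in both forms (-1.65 and -1.59), although the WT12 controls of Gm19531, at 3.60 and 2.92, were near its driven arrays (2.57 to 3.18).

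**Figure D3:**
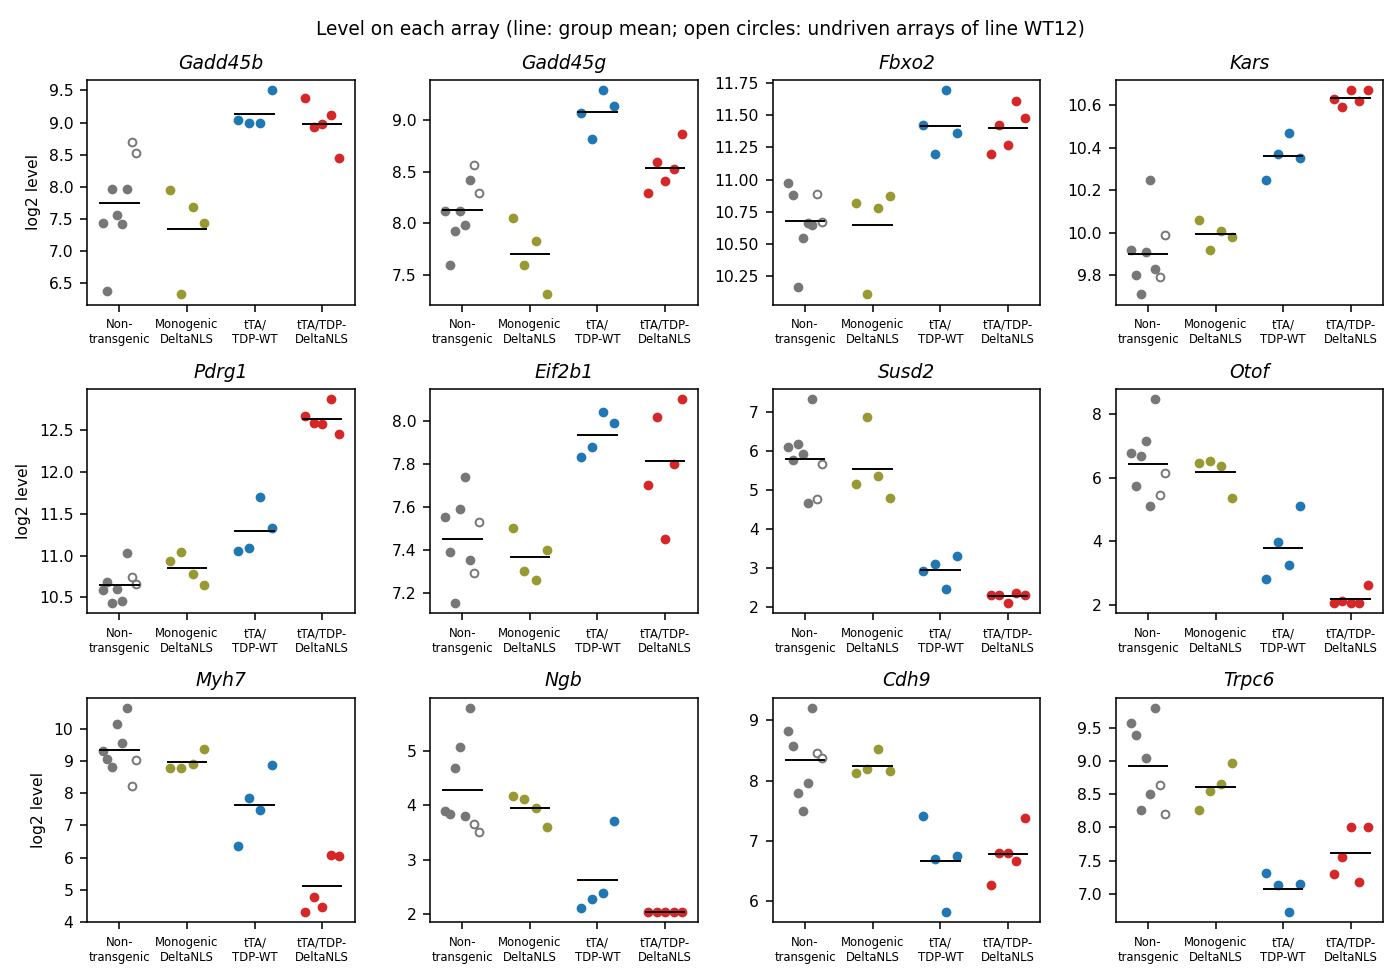
Log2 level (y axis) of 12 of these genes on every array, by group (x axis); each circle is 1 mouse, lines are group means, and open circles are the 2 Non-transgenic mice of line WT12. The means of both driven groups sit above those of the undriven groups for the first 6 genes and below them for the last 6. Single arrays of the arms overlap for Gadd45b, Gadd45g, Eif2b1, Otof, Myh7 and Ngb. The open circles of Gadd45b reach 8.69, close to the driven arrays.

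Across the 129 genes the arms did not overlap for 57, beside 168 of all 12393 genes (1.36%). The difference was the larger one in the DeltaNLS form for 76 of the 129. The forms differed by the direct test for 24 of the 129, beside 1366 of all 12393 genes (11%). The 129 genes were chosen on the same values, so the counts describe them only. They lay on all autosomes and the X chromosome, with 8 of 402 genes (1.99%) on the X, 13 of 965 (1.35%) on chromosome 2 and 2 of 958 (0.209%) on chromosome 7, beside 1.04% of all genes.

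Some genes moved in both forms but apart. In 7 genes (0.0565%) both forms passed in opposite directions. Adam19, a metalloprotease, stood at 10.36 to 10.90 in tTA/TDP-DeltaNLS, 8.49 to 9.19 in tTA/TDP-WT and 9.24 to 9.87 in undriven arrays, so that the undriven mice lay between the forms without overlap. It rose by 1.09 in the first and fell by 0.58 in the second (adjusted p = 0.0316). Magi1, a scaffold of cell junctions, did the reverse, with -0.62 and 0.55. Zfp931 (0.38 and -0.44) and Arhgap20 (0.38 and -0.67) followed the pattern of Adam19.

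The largest pooled differences included genes that passed in only 1 form. Pmaip1, which encodes the p53-induced cell death protein Noxa, stood at 9.19, 7.77, 8.44, 7.40 and 7.48 in tTA/TDP-DeltaNLS, at 5.72, 6.28, 9.13 and 5.25 in tTA/TDP-WT, and at 3.91 to 5.82 (median 5.20) in undriven arrays. In the WT form it was high on array 3, and of the other 3 arrays 1 lay above the undriven range, with a difference of 1.56 (adjusted p = 0.17). It rose by 3.07 in the DeltaNLS form, and the gap between the forms of 1.51 did not pass (adjusted p = 0.205). Tnfrsf12a, a receptor induced in injured tissue, rose by 3.25 in the DeltaNLS form and differed by 0.57 in the WT form (adjusted p = 0.272), where array 3 was again the highest, at 5.19 against 3.63, 4.05 and 3.63. Mettl27 (2.74 and 0.79) and the zinc finger gene Zfp54 (3.04 and -0.06) showed the same order, and in Zfp54 the WT form stayed at 2.04 to 2.08.

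On the side of the decreases, Spag5, a spindle protein, fell by 4.61 in the DeltaNLS form and differed by -0.77 in the WT form (adjusted p = 0.238). Its tTA/TDP-WT arrays (7.75 to 8.08) met the bottom of the undriven range (8.02 to 9.49), and the tTA/TDP-DeltaNLS arrays lay at 3.39 to 5.05. Myh1, a fast myosin heavy chain (-3.74 and -1.30), Ddit4l, an inhibitor of mTOR signalling (-3.50 and -0.75), and Tchh (-3.26 and -0.97) passed in the DeltaNLS form alone as well. In these 4 genes and in Tnfrsf12a, Mettl27 and Zfp54 the direct difference between the forms passed.

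The insertion site of the driver and the gene of TDP-43 were read separately. The tTA transgene of the published Camk2a line is inserted on chromosome 12 near Vipr2, Ncapg2 and Ptprn2, which is general knowledge and not in the labels. Ncapg2, a condensin subunit, stood at 6.83, 6.65, 6.98, 4.38 and 4.44 in tTA/TDP-DeltaNLS and at 2.90, 5.53, 3.46 and 2.98 in tTA/TDP-WT, against 6.26 to 8.48 (median 7.02). All WT-form arrays and 2 of the 5 DeltaNLS arrays were below every undriven array. It fell by 2.18 ± 0.50 in the pooled comparison (adjusted p = 0.00595) and by 3.34 in the WT form, while the DeltaNLS form differed by -1.29 (adjusted p = 0.0859). Ptprn2 differed by -0.45 (adjusted p = 0.0915), Vipr2 was at the lowest value on all arrays, and none of the 6 neighbouring genes with a probe set (Ighm, Ighv14-2, Zfp386, Cdca7l, Dnah11 and Sp4) passed the pooled comparison. Zfp386 rose by 0.42 in the DeltaNLS form (adjusted p = 0.0393), with -0.20 in the WT form (adjusted p = 0.587). Chromosome 12 held 5 of the 129 genes among 384 tested (1.30%).

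Tardbp encodes mouse TDP-43, and its 4 probe sets did not move alike. The one of highest mean differed by -0.13 ± 0.05 (adjusted p = 0.11). The second by mean stood at 9.56, 9.53, 9.62, 9.56 and 9.38 in tTA/TDP-DeltaNLS and at 10.76, 10.63, 10.45 and 10.68 in tTA/TDP-WT, against 10.45 to 11.07 (median 10.78) in undriven arrays. It fell by 1.24 in the DeltaNLS form alone, and the WT-form arrays lay within the undriven range (-0.15, adjusted p = 0.514). The fourth by mean, the dimmest, rose by 0.74 in the pooled comparison, with 1.01 in the DeltaNLS form and 0.40 in the WT form (adjusted p = 0.325), and the third did not pass (-0.31, adjusted p = 0.352). Which probe sets read the human transgene is not known here.

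**Figure D4:**
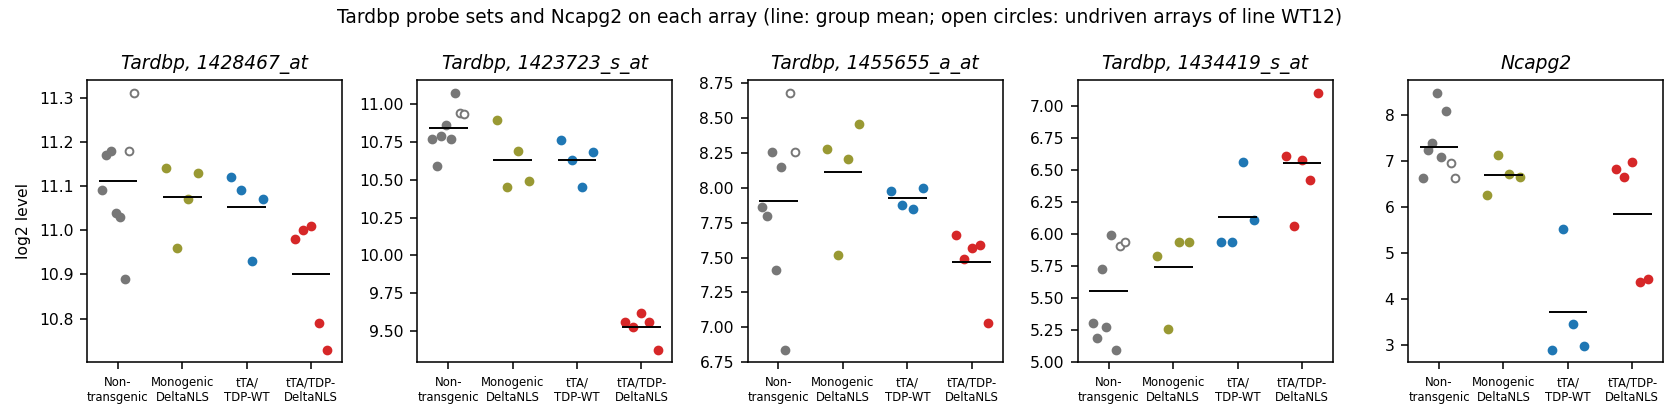
Log2 level (y axis) of the 4 Tardbp probe sets and of Ncapg2, a gene near the reported tTA insertion, on every array by group (x axis); circles are mice, lines are group means, and open circles are undriven mice of line WT12. The 5 tTA/TDP-DeltaNLS arrays of the second probe set by mean lie at 9.38 to 9.62, below all others, and Ncapg2 is lowest in tTA/TDP-WT.

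In the pooled comparison the called markers of neuronal types were all lower, for the excitatory, upper layer, deep layer and interneuron lists, while in the DeltaNLS form alone 1 excitatory and 2 interneuron genes rose. Of 7 excitatory neuron markers, 4 fell in the pooled comparison and none rose, beside 17.3% called among all genes, and 2 fell when arrays were centred or either 3' bias measure was a covariate. Slc17a6, a vesicular glutamate transporter, stood at 8.93, 9.23, 9.11, 9.46 and 9.33 in tTA/TDP-DeltaNLS and at 9.82, 9.87, 9.46 and 10.14 in tTA/TDP-WT, below all undriven arrays (10.39 to 11.23, median 10.68). It fell in both forms (-1.46 and -0.89), and the forms differed (-0.57, adjusted p = 0.0332). Its second probe set differed by -1.05 and did not pass (adjusted p = 0.105).

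Of 11 markers of the upper cortical layers 4 fell (36.4% called), and Lamp5 and Calb1 did so in both forms. Calb1, which encodes the calcium buffer calbindin, lay at 11.87 to 12.01 in tTA/TDP-DeltaNLS, 12.48 to 12.67 in tTA/TDP-WT and 12.69 to 12.99 in undriven arrays, without overlap. It fell in both forms (-0.88 and -0.29). Lamp5, a membrane protein of layer neurons and some interneurons, fell in both forms (-1.34 and -0.27), and the WT form overlapped the undriven arrays (12.23 to 12.46 against 12.42 to 12.82). For both genes the fall was larger in the DeltaNLS form (direct adjusted p = 8.54e-06 and 1.9e-07). Of 9 deep layer markers 3 fell (33.3% called), none of them in both forms. Of 18 interneuron genes 3 fell (16.7% called, near the background of 17.3%), and Reln, the secreted protein of Cajal-Retzius cells and interneurons, did so in both forms (-0.49 and -0.70). Grik1, a kainate receptor subunit, fell in both forms (-0.69 and -0.54) and was the only one of 21 glutamate and GABA receptor genes that passed in the pooled comparison. With the beta-actin bias as a covariate 8 of these 21 fell, with the Gapdh bias 6, and without the 2 biased arrays 3.

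No marker of astrocytes (0 of 14), microglia (0 of 17), oligodendrocytes (0 of 10), choroid plexus (0 of 7) or striatum (0 of 7) passed the pooled comparison, and no interferon response gene (0 of 17) did in limma. At an unadjusted p under 0.05 the counts were 1 for astrocytes, 0 for microglia, 1 for oligodendrocytes, 0 for choroid plexus, 1 for striatum and 0 for the interferon list. With the beta-actin bias as a covariate 2 astrocyte, 1 microglial and 1 oligodendrocyte marker fell in the pooled comparison. In the DeltaNLS form alone 2 astrocyte, 2 microglial, 1 oligodendrocyte and 1 striatal marker fell, beside 11.6% of all genes lower in that form. In the WT form alone 9 microglial and 10 interferon genes had an unadjusted p under 0.05, and none of either list passed after adjustment. The median difference of the microglial list was -0.27 in the DeltaNLS form and 0.43 in the WT form, and that of the interferon list was -0.05 and 0.45. These medians in the WT form include array 3. The mean microglial level ran from 8.18 to 9.77 in tTA/TDP-WT, 7.51 to 8.14 in undriven and 7.04 to 7.95 in tTA/TDP-DeltaNLS arrays. All tTA/TDP-WT arrays thus lay above all others on this list. The mean interferon level ran from 3.4 to 5.1 in tTA/TDP-WT and from 3.4 to 3.8 in undriven arrays, with overlap. Serpina3n, a gene of reactive astrocytes, was the only one of 15 in its list to pass, at 4.57 to 5.61 in tTA/TDP-DeltaNLS and 5.71 on tTA/TDP-WT array 3, with the other WT-form arrays (3.08 to 3.29) inside the undriven range of 2.61 to 4.26. Itm2a, an endothelial gene, fell in both forms (-0.25 and -0.26). Of 8 hippocampal markers 3 fell in the pooled comparison (37.5% called, beside 17.3% of all genes), none in both forms.

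**Figure D5:**
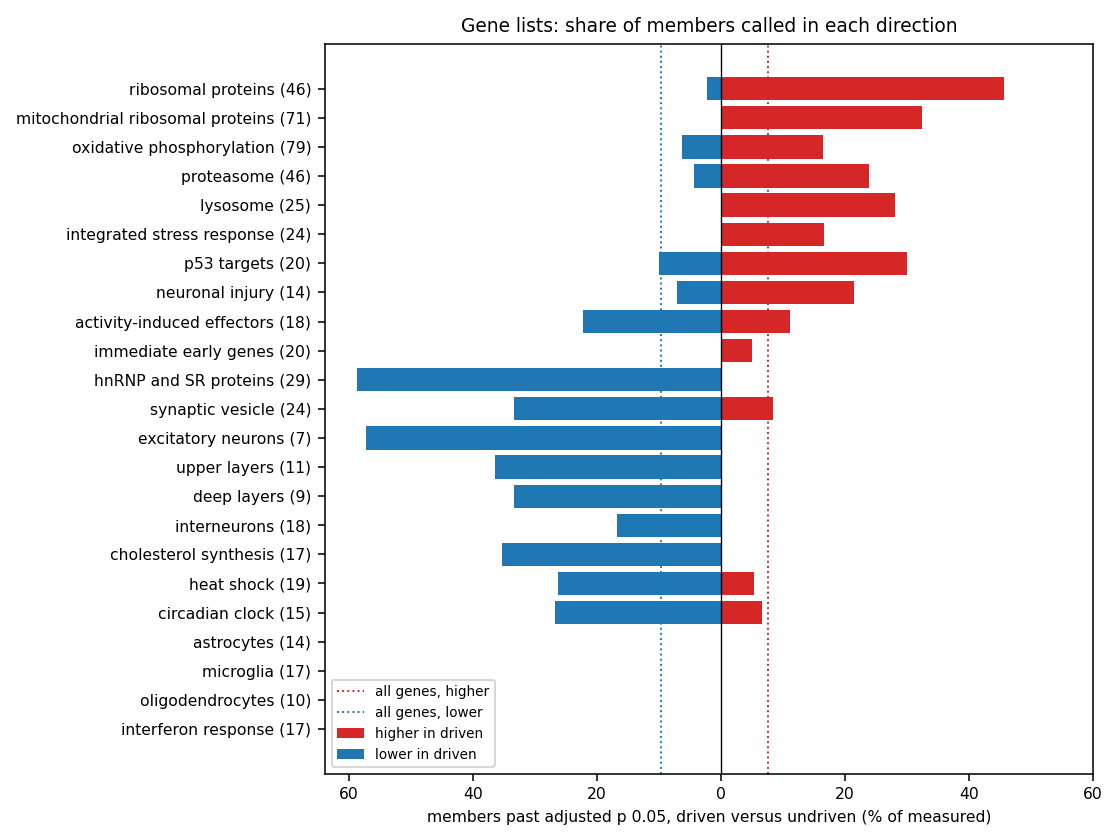
Share of the measured members of each gene list past an adjusted p of 0.05 in the pooled comparison (x axis, percent; bars to the right are higher and to the left lower in driven mice; members in brackets). Dotted lines are the shares among all genes, 7.65% higher and 9.69% lower; the ribosomal lists extend to the right and the hnRNP and SR list to the left.

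Genes of ribosomes were mostly on the higher side. Of 46 cytosolic ribosomal protein genes 21 rose and 1 fell, with a median difference of 0.12, and of 71 mitochondrial ribosomal protein genes 23 rose and none fell, with a median of 0.19, beside a median of 0 over all genes. Called were 47.8% of the cytosolic and 32.4% of the mitochondrial ones, beside 17.3% of all genes. In the DeltaNLS form 24 cytosolic and 30 mitochondrial genes rose (medians 0.175 and 0.208), beside 11.8% of all genes. In the WT form 0 and 2 did (medians 0.052 and 0.131), beside 0.597% of all genes. Rps19 stood at 13.01 to 13.23 in tTA/TDP-DeltaNLS and 12.74 to 12.85 in tTA/TDP-WT, against 11.05 to 12.77 in undriven arrays, where Non-transgenic array 6 was the lowest. It rose by 0.77 in the DeltaNLS form and differed by 0.44 in the WT form (adjusted p = 0.362). None of the cytosolic genes and 1 of the mitochondrial ones passed in both forms. The arrays of high 3' bias were in the undriven arm, and with the Gapdh bias as a covariate the counts were 22 and 31 genes higher, with the 2 biased arrays left out 22 and 34, and with arrays centred 12 and 28.

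The proteasome list had 11 of 46 members higher and 2 lower, and Psmg3 was 1 of 2 that passed in both forms. Psmd4, the ubiquitin receptor of the regulatory particle, rose by 0.51 in the pooled comparison, with like differences in the forms (0.53, and 0.49 with an adjusted p of 0.0789). Of 25 lysosomal genes 7 rose and none fell. Oxidative phosphorylation genes moved both ways, 13 higher and 5 lower of 79, with a median difference of 0.025. The shares called were 28.3% for the proteasome, 28% for the lysosome and 22.8% for oxidative phosphorylation, beside 17.3% of all genes. Among all genes 7.65% were higher and 9.69% lower.

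Of 24 integrated stress response genes 4 rose in the pooled comparison and none fell (16.7% called, beside 17.3% of all genes called and 7.65% called higher), and 10 in the DeltaNLS form and none in the WT form on its own, where limma gave 3 at an unadjusted p under 0.05. Over all genes 11.8% were higher in the DeltaNLS form and 0.597% in the WT form. With the beta-actin bias as a covariate 10 rose in the pooled comparison, with the Gapdh bias 7, and 6 did without Non-transgenic arrays 4 and 6. Only 3 rose with undriven arrays of low 3' bias alone, and 3 without tTA/TDP-WT array 3. Ddit3, the factor CHOP, stood at 11.53, 10.95, 11.24, 11.10 and 11.43 in tTA/TDP-DeltaNLS and at 10.52, 10.64, 11.21 and 10.87 in tTA/TDP-WT, against 9.61 to 10.67 (median 10.26). It rose by 1.01 in the DeltaNLS form, and the WT form, of which 2 arrays lay above the undriven range, differed by 0.59 (adjusted p = 0.068). Atf4, the central factor of the response, rose by 1.02 in the DeltaNLS form and differed by 0.29 in the WT form (adjusted p = 0.357). Of 20 p53 targets 6 rose and 2 fell, none in both forms (5 at an unadjusted p under 0.05 with the same direction), and with the Gapdh bias as a covariate 3 rose and 3 fell. Aen, a p53-induced nuclease, rose by 1.46 in the DeltaNLS form and differed by 0.52 in the WT form, where array 3 (11.52) was the highest of the 4. Of 20 immediate early genes 1, Ier3, rose in the pooled comparison (1.15). In the DeltaNLS form 5 of the 20 fell and 1 rose, with a median of -0.45, and in the WT form none passed in limma (4 at an unadjusted p under 0.05), with a median of 0.36. Among all genes 11.6% were lower in the DeltaNLS form.

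Most called hnRNP, SR and synaptic vesicle genes were lower. Of 29 hnRNP and SR protein genes, which package and splice pre-mRNA, 17 fell and none rose (58.6% called), with a median of -0.17 in the pooled comparison, -0.20 in the DeltaNLS form and -0.15 in the WT form. None passed in both forms in limma, and 10 had an unadjusted p under 0.05 in both with the same direction. Hnrnpm fell by 0.48 and Srsf4 fell by 0.47 in the pooled comparison, and on both genes Non-transgenic arrays 4 and 6 were the 2 highest of all arrays. With either bias measure as a covariate 9 of the 29 fell. Without Non-transgenic arrays 4 and 6, 16 fell and 1 rose, and with arrays centred 14 fell. Of 24 neuronal RNA-binding proteins 3 fell and 1 rose (16.7% called, near the background of 17.3%). The riser was Fxr2, a relative of the fragile X protein, with 0.47 in the pooled comparison. Fxr2 rose by 0.75 in the DeltaNLS form and differed by 0.09 in the WT form (adjusted p = 0.693). Nova1, a neuronal splicing factor, stood at 6.48 to 7.51 in tTA/TDP-DeltaNLS and 7.17 to 8.45 in tTA/TDP-WT, below all undriven arrays (8.53 to 9.97). It fell by 2.18 in the DeltaNLS form and differed by -1.03 in the WT form (adjusted p = 0.0653). Of 24 synaptic vesicle genes 8 fell and 2 rose (41.7% called). Doc2b, a calcium sensor of release, fell by 2.02 in the pooled comparison and Synpr, synaptoporin, fell by 0.59. Neither of these genes passed in the WT form (adjusted p = 0.166 and 0.0546). Of 18 activity-induced effectors 4 fell and 2 rose (33.3% called), the latter being Gadd45b and Gadd45g. Of 21 neuropeptide and granin genes 3 fell and 1, Chga, was called higher (0.40), a share of 19% called, near the background of 17.3%. Chga rose by 0.73 in the DeltaNLS form and differed by -0.02 in the WT form, where it did not pass. Nptx2, a synaptic pentraxin induced by activity, fell by 1.34 and Cartpt, a neuropeptide precursor, fell by 1.31. Both passed in the DeltaNLS form and not in the WT form (adjusted p = 0.195 and 0.0581 in the latter). Of 15 neuronal genes with long introns 5 fell and 1 rose (40% called), with Ctnna2, a catenin, at -0.72 and -0.27 in the forms (adjusted p = 0.0622 in the second). In the pooled comparison 6 of 17 cholesterol synthesis genes fell and none rose, 5 of 19 heat shock genes fell and 1 rose, and 4 of 15 circadian clock genes fell and 1 rose, beside 9.69% lower and 7.65% higher among all genes. None of these 3 lists had a member that passed in both forms.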

How the data were processed

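Cortical RNA of 21 mice (TRIzol, RNA integrity number of at least 7) was measured on Affymetrix MOE430A v2.0 arrays, per the labels' protocols. The deposited values are log2 levels made by the authors with Partek, per the submitters' processing notes, and the sources used here do not name the background correction or normalization. Of 22690 probe sets, 64 were controls and 20380 had 1 gene symbol, and those with several (691) or none (1555) were left out. The probe set of highest mean stood for each of 12393 genes. On each array 30.7% to 32.4% of values were at the lowest value, and 2854 genes were there on all arrays. The number of arrays limits the precision.

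Differences were fitted with limma 3.58.1 in R 4.3.3 (intensity trend, sex as covariate, Benjamini-Hochberg over all genes, adjusted p of 0.05), with 2 arms for the pooled comparison and 3 arms (each form, undriven) for the rest. The fit was tested on simulated data. Nothing says more of the mice than 1 array each, so p-values measure the spread between these arrays. The named genes are the 12 largest increases and 12 largest decreases past the threshold in each form, ranked by the smaller of the 2 differences, then 4 genes that passed in opposite directions, 4 in each direction that passed in 1 form, and up to 2 from each of 46 lists; other genes were chosen after their values were seen. The members, lists and tests were chosen with earlier results of these data known. The alternatives were other controls, covariates, scalings, filters, probe sets, and each array left out. Promoters were matched by symbol to the RefSeq table.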

Additional observations from a re-analysis of the deposited data

Results flagged for a closer look

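Within groups of 4 to 8 mice, 29 single values lay far from the rest of their group by Dixon's test, 22 of them among 232 tests of 58 genes in 4 groups, where chance flags about 1 in 20.

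In tTA/TDP-WT, array 3 stood apart in the microglial list (9.77), the choroid plexus list (4.69), Serpina3n (5.71) and Myh1 (4.10), and array 4 in Gadd45b (9.50), Trhr (4.62) and Ptprn2 (2.49). In tTA/TDP-DeltaNLS, array 5, its only female, stood apart in Otof (2.62), Magi1 (8.54) and Myh1 (3.69), and array 3 in Susd2 (2.09).

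Among Monogenic DeltaNLS mice, array 2 stood apart in Fbxo2 (10.11), Spag5 (9.16), Ptprn2 (2.24), Nptx2 (9.94) and the beta-actin 3' minus 5' difference (3.13), array 4 in Otof (5.37) and array 1 in the choroid plexus list (6.42). Among Non-transgenic mice, array 6 stood apart in the Gapdh 3' minus middle difference (1.82), Nop14 (7.09), Trhr (7.97), Zfp54 (2.84), Atf4 (11.05), Doc2b (7.46), Serpina3n (4.26), the interferon list (3.78) and the hippocampal list (8.09), and array 4 in Tnfrsf12a (4.51) and Myh1 (8.30).

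The forms differed in size by the direct limma test for 28 of 58 genes screened for this (tTA/TDP-DeltaNLS minus tTA/TDP-WT). Outside that screen, Fxr2 (0.66), Chga (0.745) and Zfp386 (0.63), also described above, passed the direct test too. Form and line cannot be told apart in these differences. Among genes past the threshold in each form they were 1.34 for Pdrg1, 0.40 for Susd6, 0.35 for Hsd17b10, 0.51 for Arl2, 0.32 for Kars, -2.15 for Myh7, -1.62 for Smoc2, -0.57 for Slc17a6, -1.06 for Lamp5 and -0.59 for Calb1. Among genes past it in opposite directions they were 1.67 for Adam19, -1.17 for Magi1, 0.82 for Zfp931 and 1.04 for Arhgap20. For genes past it in 1 form they were 2.69 for Tnfrsf12a, 1.95 for Mettl27, 3.10 for Zfp54, -3.84 for Spag5, -2.44 for Myh1, -2.74 for Ddit4l and -2.29 for Tchh. In the gene lists they were -1.15 for Nova1, 0.73 for Atf4, 0.94 for Aen, -0.39 for Synpr, -0.45 for Ctnna2, -0.91 for Cartpt and 1.48 for Serpina3n.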

How the results depend on the processing

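The pooled count and the count with equal direction stayed within 1.5 times of their values, except with Monogenic DeltaNLS controls alone, where both were 385. The count past the threshold in each form was 285 without the sex covariate, 195 with dim genes left out, 316 without Non-transgenic arrays 4 and 6, 233 with undriven arrays of low 3' bias alone, 42 with Non-transgenic and 34 with Monogenic DeltaNLS controls alone, and 0 in limma with the line as covariate or with own-line controls. In the same order the tTA/TDP-WT count was 567, 349, 577, 424, 70 and 56, and 1 with the line as covariate. The count that differed between the forms was 2525 with the beta-actin and 2357 with the Gapdh bias as covariate, 2396 without the 2 biased arrays, 2569 with low-bias undriven arrays and 2102 with Monogenic DeltaNLS controls alone. The cause of these shifts was not tested. With single arrays left out, the counts ran from 1638 to 2467 (pooled), 1630 to 2389 (equal direction), 17 to 229 (each form), 2455 to 3598 (tTA/TDP-DeltaNLS), 43 to 410 (tTA/TDP-WT) and 863 to 2005 (between the forms), and the highest of each came without Non-transgenic array 6. The lowest came without tTA/TDP-WT array 3 for each form and tTA/TDP-WT, and without tTA/TDP-WT array 1 between the forms. Both settings on the Gapdh bias, and sex read from Xist, were chosen after seeing the data. No value changed sign while called. The share of increases among pooled calls was 39.5% with centred and 46.6% with quantile-normalized arrays. No paired analysis was possible because the array numbers in the titles do not repeat across the groups.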
